A study of Drosophila melanogaster and Drosophila persimilis and Drosophila pseudoobscura with 5 samples.

Results

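Johnston's organ, with which the fly hears through the second segment of its antenna, was compared by RNA sequencing between D. yakuba and D. melanogaster. The comparison rests on 1 library of adult D. yakuba and 1 library of adult D. melanogaster, from flies raised at 25 °C. The levels come from the authors' cross-species table of 8180 genes under D. melanogaster symbols, in which each gene has a length-corrected signal in 5 species. The 4982 genes whose signal averaged at least 5 across all 5 libraries were compared. A gene was counted as different when its signal plus 1 differed at least 4-fold, a log2 difference of at least 2 in size. By this rule 572 of the 4982 compared genes differed, 11.5%. Reads had been assigned on each species' own annotation, release 5.46 for D. melanogaster and release 1.3 for D. yakuba. The labels give no strain, sex or number of flies for either library, and no genotype or treatment beyond the species. In the cross-species table the heading of the D. melanogaster column holds the word "mix", which that of D. yakuba does not. What the word stands for was not examined. Since each species has 1 library, differences could not be set against the spread of replicates and are given without a test. "Higher" and "lower" mean D. yakuba relative to D. melanogaster in these libraries. Because whole tissue was sequenced, fewer cells of a type and less RNA per cell cannot be told apart. The other three libraries, of D. simulans, D. pseudoobscura and D. persimilis, entered the filter on low signal, an alternative that asks for a signal above 0 in all 5 libraries and the descriptions of where a gene stands among them. Their values are given beside some genes.

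As background, Johnston's organ is built of chordotonal units in which ciliated sensory neurons are stretched between the antennal cuticle and support cells, and mechanosensitive channels in the cilia open when sound turns the outer antenna. The organ lies beside the olfactory segment of the antenna and holds glia, haemolymph and antennal cuticle. Muscles that move the antenna, fat cells and haemocytes are found nearby in the head. Odorant-binding proteins are small secreted carriers of the antenna, cytochrome P450 enzymes oxidise odorants, hormones and toxins, and proteins related to takeout are secreted carriers made in antenna and fat body.

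The D. melanogaster library held 22391819 reads on 11074 genes and the D. yakuba library 13916387 reads on 10815 genes, so that the D. melanogaster values rest on more reads. The 75th percentile of the signal was the same in both, 34.3. Among defining genes of the labelled tissue some were low or at 0 in both libraries, while the channel genes nan, ppk, wtrw and pain passed the filter and are described below. The mechanotransduction channel nompC had a signal of 1.41 in D. melanogaster and 1.71 in D. yakuba, below the filter, and nompA, which encodes a matrix protein of chordotonal units, had 0.138 in D. melanogaster and 0.632 in D. yakuba. The proneural gene ato was listed at 0 in both. The neuronal marker elav had a signal of 5.66 in D. melanogaster and 9.41 in D. yakuba, and the glial marker repo had 15.2 in D. melanogaster and 21.96 in D. yakuba.

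Among the 572 genes, 300 were higher in D. yakuba, 6.02% of those compared, and 272 were lower, 5.46%. Counts of higher and lower genes in the gene lists below are to be read beside these shares. Both libraries had a signal above 0 for 4786 compared genes, of which 438 differed at least 4-fold, 9.15%, with 199 higher and 239 lower. The other 134 were listed at 0 in either library, 101 of them in D. melanogaster and 33 in D. yakuba. No fold is given for these, since such a value may also stand for a gene that was not matched between annotations. The median log2 difference over compared genes was 0.00, the 25th and 75th percentiles were −0.68 and 0.68, and 66.0% were within 2-fold. Differences of at least 8-fold were found for 263 genes and of at least 64-fold for 11 genes above 0 in both. The rank correlation of the signals across the 4982 genes was 0.75 (Spearman), as a description of genes that share a library. When the libraries were scaled to equal totals of the table, the median difference moved to −0.25 and the split became 241 higher and 345 lower.

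**Figure D1:**
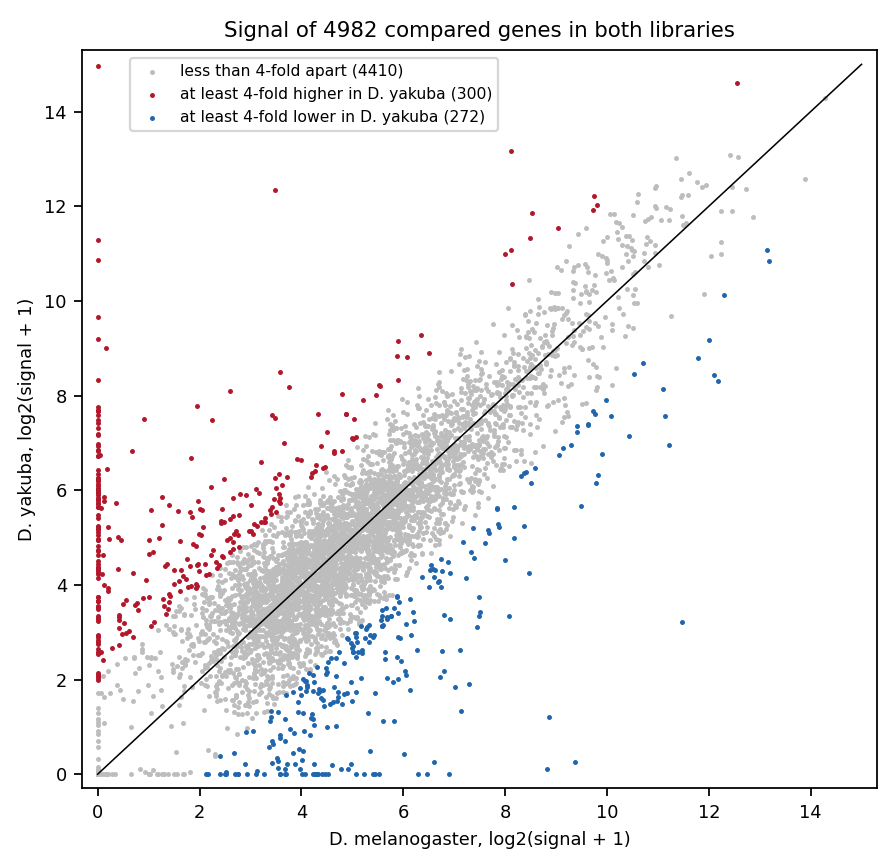
Signal of the 4982 compared genes in the D. melanogaster (x) and D. yakuba (y) libraries, as log2 of signal plus 1, with the line of equal signal. Points in red are the 300 genes at least 4-fold higher in D. yakuba, points in blue the 272 at least 4-fold lower, and the column of red points at x of 0 holds the 101 genes listed at 0 in D. melanogaster.

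The 2 directions differed in where their genes lie. Exon overlap was measured in the BDGP6 annotation of D. melanogaster as the share of a gene's exon bases that also belong to exons of another gene. Among 267 compared genes with an overlap of at least 50%, 117 were higher in D. yakuba (43.8%) and 12 lower (4.49%). Among 2841 genes with no overlap, 109 were higher (3.84%) and 176 lower (6.20%). The genes listed at 0 in D. melanogaster and higher in D. yakuba had at least 50% overlap in 74 of 99 matched cases, with a median of 100%. In contrast, higher genes above 0 in both libraries had such overlap in 43 of 198 cases, and all lower genes in 12 of 271. No source used here says whether reads shared by overlapping genes were left out of the D. melanogaster counts, and the part of overlap in these differences was not tested. Among the 4022 genes with under 10% overlap, 146 were higher and 224 lower, and overlap of at least 50% is given below beside the named genes it touches.

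**Figure D2:**
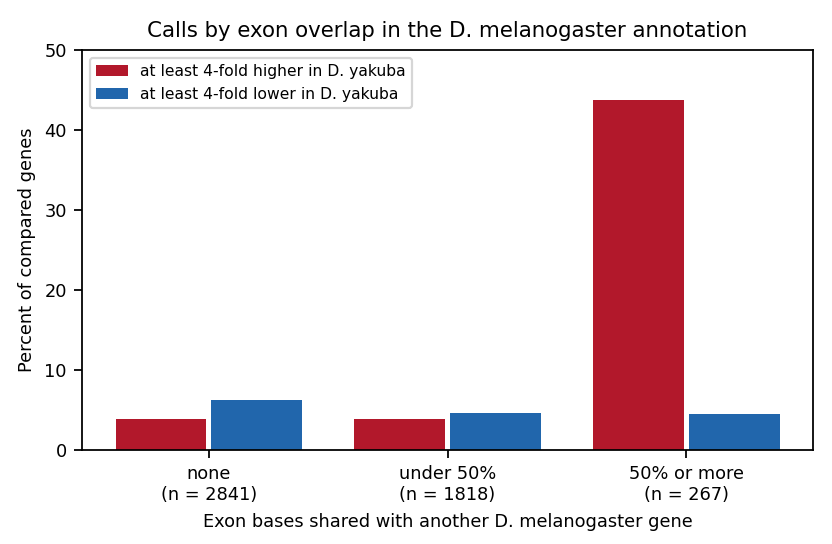
Percent of compared genes at least 4-fold higher (red) or lower (blue) in D. yakuba, for genes with no exon overlap, under 50% and 50% or more in the D. melanogaster annotation. Bars start at 0, and the number of genes is under each class. The red bar reaches 43.8% in the last class and is 3.84% in the first, while the blue bars lie between 4.49% and 6.20%.

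The share of different genes was similar on the chromosome arms, 11.7% on X, 11.4% on 2L, 11.9% on 2R and 11.3% on both 3L and 3R, with 5 of 36 genes on chromosome 4. On 2L 70 genes were higher and 38 lower, and on 3L 39 were higher and 53 lower. By exon length the share was 15.6% in the quartile of shortest genes and 8.12% in that of the longest. By mean signal it lay between 9.88% and 13.3% in the 4 quartiles. Just inside the threshold stood Tfb4, a subunit of the transcription and repair factor TFIIH, with signals of 2.82 in D. melanogaster and 14.3 in D. yakuba, and CG8195 with 15.2 and 3.06. Just outside stood Grip with 17.1 and 3.54 and CG8180 with 54.03 and 12.8.

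Among genes above 0 in both libraries, the odorant-binding protein gene Obp84a (Pbprp4 in the table, 3R:7250725-7251957 in BDGP6) was furthest higher in D. yakuba. Its signal was 5222 in D. yakuba, 10.2 in D. melanogaster, 4972 in D. persimilis, 443 in D. simulans and 4046 in D. pseudoobscura. The D. melanogaster value, from 139 reads (95% exact Poisson interval 117 to 164, counting error only), was the lowest of the 5, and the D. yakuba value the highest. The log2 difference was 8.86, and 81.2% of its exon bases overlap another gene. The gene slmo (2L:6046516-6048706), which encodes a mitochondrial protein, had signals of 517 in D. yakuba, 0.117 in D. melanogaster, 902 in D. persimilis, 782 in D. simulans and 344 in D. pseudoobscura. Its D. melanogaster value rests on 4 reads (1.09 to 10.2), with 93.8% of exon bases overlapping, and the other three libraries were all near the D. yakuba level. A similar placement was seen for vnc, at 86.3 in D. yakuba, 0.133 in D. melanogaster, 147 in D. persimilis, 106 in D. simulans and 158 in D. pseudoobscura, where D. melanogaster had 3 reads (0.619 to 8.77) and the overlap was 93.2%.

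Tsp42Ea (2R:6992676-7004259), a tetraspanin membrane protein, had little overlap (4.797%) and signals of 274 in D. yakuba, 5.09 in D. melanogaster, 294 in D. persimilis, 93.5 in D. simulans and 506 in D. pseudoobscura. D. melanogaster, with 172 reads, was the lowest of the 5, and the log2 difference was 5.50. The astrocyte gene alrm (3R:25381065-25382781) had no overlap and signals of 56.7 in D. yakuba, 1.41 in D. melanogaster, 26.8 in D. persimilis, 24.5 in D. simulans and 10.7 in D. pseudoobscura. D. yakuba was the highest of the 5 and D. melanogaster, with 41 reads, the lowest, a log2 difference of 4.58. The acyl-CoA-binding protein gene Acbp5 (CG5804, 3L:8788144-8788545) had no overlap either, with signals of 181 in D. yakuba, 0.890 in D. melanogaster, 8.57 in D. persimilis, 14.2 in D. simulans and 5.67 in D. pseudoobscura. Here D. yakuba stood above all other libraries, and the D. melanogaster value rests on 5 reads (1.62 to 11.7).

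Without overlap were also tgy, related to glycosyltransferases, wun2, a lipid phosphate phosphatase, and Or43a, an odorant receptor. The signal of tgy was 46.8 in D. yakuba, 1.08 in D. melanogaster, 24.2 in D. persimilis, 7.03 in D. simulans and 0 in D. pseudoobscura, from 29 reads in D. melanogaster. That of wun2 was 14.95 in D. yakuba, 0.0915 in D. melanogaster, 13.4 in D. persimilis, 0 in D. simulans and 6.43 in D. pseudoobscura, and its D. melanogaster value rests on 3 reads (0.619 to 8.77), so that the size of its difference is poorly known. In tgy the D. yakuba signal was the highest of the 5, and in wun2 D. simulans was listed at 0. Pif1A, MEP-1, Fuca, CG12016, CG13877 and Kaz-m1 overlap other genes by 57.01% (Kaz-m1) to 100% (Fuca). Pif1A had signals of 52.1, 0.286, 11.8, 32.7 and 33.01, given first for D. yakuba, then for D. melanogaster, D. persimilis, D. simulans and last for D. pseudoobscura, as in the lists of 5 signals that follow. The chromatin factor MEP-1 had 14.3, 0.157, 4.57, 2.17 and 6.07. In both, D. melanogaster was the lowest of the 5 and D. yakuba the highest. The fucosidase Fuca had 74.4, 4.55, 13.2, 7.38 and 0.896, again highest in D. yakuba but lowest in D. pseudoobscura. Of the genes without a given name, CG12016 had 107, 0.0256, 9.77, 118 and 20.1, and its D. melanogaster value rests on 1 read (0.0253 to 5.57). CG13877 had 113, 0.585, 112, 150.4 and 141, with 5 D. melanogaster reads, and the libraries other than D. melanogaster were all above 100. The protease inhibitor gene Kaz-m1 (m1) had 190.4, 9.73, 229, 1.73 and 6.905, high in D. yakuba and D. persimilis and low in the other three. Of 195 higher genes above 0 in both with known reads, 37 had under 20 reads in D. melanogaster.

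Of the higher genes listed at 0 in D. melanogaster, the 5 named ones with the highest D. yakuba signal were the peroxiredoxin Prx5 (1866), the mitochondrial import chaperone Tim10 (321), the phosphatase primo-1 (205), the mitochondrial ribosomal protein mRpL53 (204) and the signal peptidase subunit Spase12 (193). All of them were above 0 in each of the other four libraries and had 0 D. melanogaster reads, which allows up to 3. Their exon overlap ran from 90.7% in Tim10 to 100% in the others.

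The furthest lower gene was Cyp6w1 (2R:6173684-6176195), a cytochrome P450 without exon overlap. Its signal was 0.192 in D. yakuba, 667 in D. melanogaster, 682 in D. persimilis, 384 in D. simulans and 711 in D. pseudoobscura. D. yakuba alone was near 0, while the D. melanogaster value rests on 18093 reads, and the log2 difference was −9.13. The ubiquitin and ribosomal fusion gene RpS27A (2L:10408352-10410456) had 8.29 in D. yakuba, 2844 in D. melanogaster, 4412 in D. persimilis, 4657 in D. simulans and 3344 in D. pseudoobscura, again with D. yakuba far below all others, a log2 difference of −8.26. The sources used here do not say how genes were matched across species, so a wrong match, for example to a related copy, cannot be told apart from a lower level. The larval storage protein gene Lsp2 (3L:12129393-12131869), a fat body product, had 0.0814 in D. yakuba, 453 in D. melanogaster, 22.6 in D. persimilis, 10.2 in D. simulans and 32.1 in D. pseudoobscura. D. melanogaster was the highest of the 5 there, from 17410 reads, and 84.6% of its exon bases overlap another gene.

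A second P450, Cyp6d5 (3R:14029228-14031483), had signals of 1.301, 462, 102, 121 and 85.2, highest in D. melanogaster and lowest in D. yakuba, a log2 difference of −7.65. The cuticular protein gene Cpr51A had 1.52, 140.1, 13.5, 10.9 and 14.9. Cpr100A, of the same family, had 0.340, 63.4, 14.9, 7.12 and 0. Their relative Cpr47Ee had 2.59, 129, 0, 13.9 and 20.6. In Cpr51A, Cpr100A and Cpr47Ee D. melanogaster exceeded every other library. The odorant-binding protein Obp8a had 9.08, 268, 40.6, 76.8 and 61.1, with D. yakuba lowest. Obp58b had 5.11, 108, 23.03, 5.11 and 36.6, where D. yakuba and D. simulans were level and lowest. Polr2F (RpII18), a subunit shared by nuclear RNA polymerases, had 18.1, 354, 218, 255 and 129, and here the D. yakuba value alone was far below the others. The DNA repair enzyme agt had 1.45, 38.6, 19.6, 7.72 and 20.3, with D. yakuba lowest. The fatty acid elongase bond had 3.04, 58.5, 4.65, 3.79 and 0.206, where D. melanogaster alone was above 5. The protease Jon74E had 3.54, 111, 0, 0 and 0. Iris, which derives from a retroviral envelope gene, had 1.17, 47.4, 0, 2.92 and 0. The P450 Cyp4e3 had 5.12, 137, 11.2, 10.2 and 4.03. In Jon74E, Iris and Cyp4e3 D. melanogaster stood apart at the top of the 5. Of the genes without a given name, CG34227 had 0.189, 96.3, 0, 0 and 0. CG32647 had 2.74, 156, 5.11, 14.4 and 12.1, and CG7878 had 0.407, 39.8, 0, 6.16 and 0. All of them were highest in D. melanogaster. D. melanogaster reads behind the lower set ran from 446 in agt to 28074 in RpS27A.

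Lower genes listed at 0 in D. yakuba included the replication factor subunit Psf3 (87.2 in D. melanogaster), the glucosidase tobi (41.4), the maltase Mal-B1 (32.5) and the chitin-binding protein obst-B (21). Of these, Psf3 was also at 0 in D. pseudoobscura and D. persimilis, and tobi, Mal-B1 and obst-B were above 0 in all libraries except D. yakuba.

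**Figure D3:**
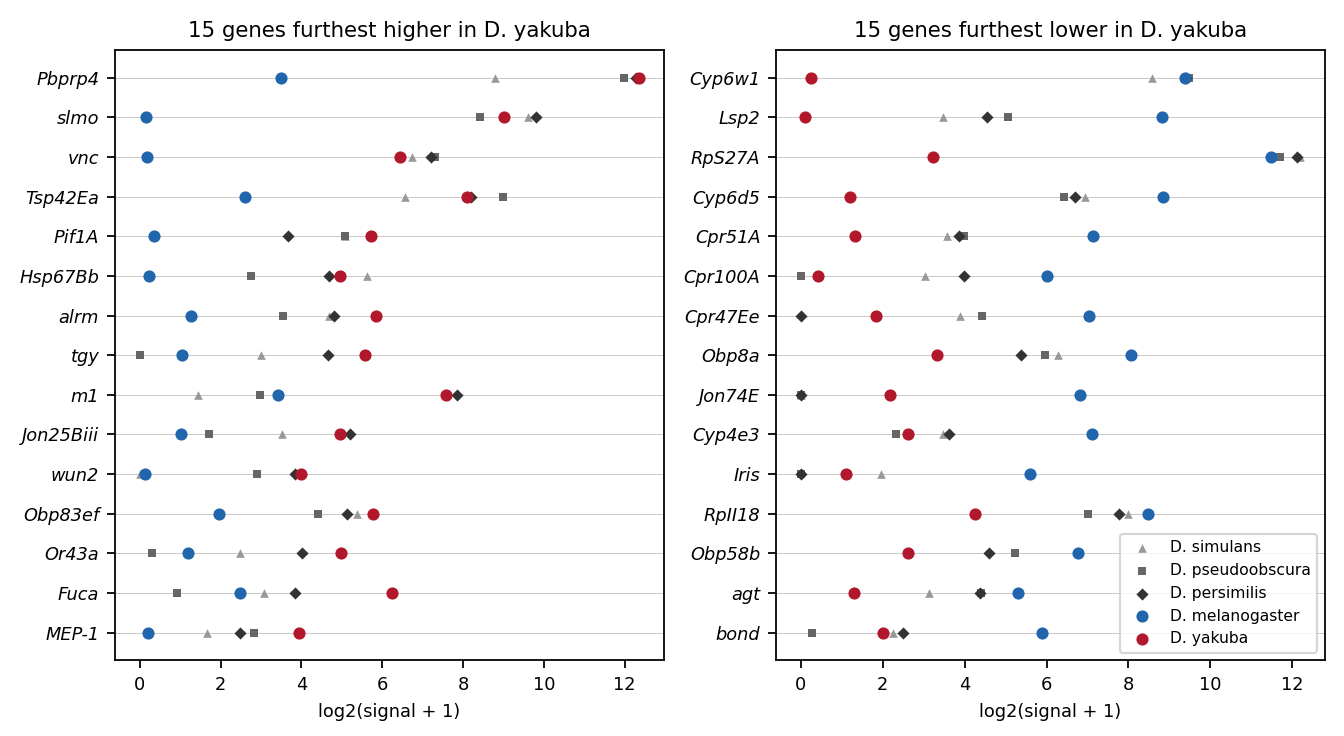
Signal of the 15 named genes furthest higher (left) and furthest lower (right) in D. yakuba among genes above 0 in both libraries, as log2 of signal plus 1, with 1 point per species. In the left panel the blue D. melanogaster points sit toward the low end of most rows, and in the right panel the red D. yakuba points do, with Cyp6w1 and RpS27A holding the other four libraries together far to the right.

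Where D. melanogaster and D. yakuba stand among the libraries is described over the 367 different genes above 0 in all 5 libraries. Since these genes were chosen for the distance between D. melanogaster and D. yakuba, places at the ends are in large part fixed by the rule. The same counts were not made over all compared genes. Of 165 higher genes, D. melanogaster lay below the other three libraries in 122 and D. yakuba above them in 69, with 43 in both counts. Of 202 lower genes, D. yakuba lay below the other three in 118 and D. melanogaster above them in 105, with 55 in both.

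Among the 10 genes with the highest mean of the 2 libraries, the odorant-binding protein Obp19d (Pbprp2) was almost level, at 19981 in D. melanogaster and 20108 in D. yakuba. The cuticular protein Cpr65Au had 15174 and 6133 (overlap 93.3%), the antennal dehydrogenase Antdh 5474 and 8669.6, the ribosomal protein RpL39 6819 and 5275, the cytochrome c oxidase subunit COX7B 5651 and 5454 and CG7409 6057 and 8441, none of them 4-fold apart. The remaining genes did differ. ATPsynC (CG1746), the ring subunit of ATP synthase, had 6014 and 24833 and the takeout relative Jhbp14 (CG5867) 9042 and 2147. The odorant-binding protein Obp56d had 9249 and 1831. CG14645 was listed at 0 in D. melanogaster, where all its exon bases overlap another gene, and had the highest D. yakuba signal of these genes, 31998, against 3198 in D. simulans and 20.8 in D. pseudoobscura.

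Of 12 mechanosensory channel genes in the table, the 4 that passed the filter were close between the species. From here on, a pair of signals is that of D. melanogaster followed by that of D. yakuba. All 4 compared mechanosensory channel genes were within 2-fold, namely the TRPV subunit nan (13.4 and 11.9), the sodium channel subunit ppk (10.99 and 14.6) and the TRPA channels wtrw (77.9 and 75.2) and pain (58.5 and 44.7). Below the filter, Piezo (8.55 and 2.81), Trpm (4.54 and 1.09) and stum (CG30263, 2.16 and 5.86) were over 2-fold apart in signal plus 1. The remaining channel genes below the filter were not. The list of axonemal dynein and its assembly had 12 compared genes, 6 of them within 2-fold. These 6 include nop5 (29.8 and 23.4), which encodes a nucleolar protein and no part of axonemal dynein. In the list none was higher and 1 was lower, the inner-arm light chain Dnali1 (CG6971) with 24.5 in D. melanogaster and 1.04 in D. yakuba. D. yakuba was the lowest of the 5 for Dnali1, whose other libraries ran from 17.9 to 33.7. Ciliogenesis and intraflagellar transport genes had a median log2 difference of 0.93, with 8 of 18 within 2-fold against 66.0% of all compared genes. Of the 18, 4 were higher, 22.2%, where 6.02% of all compared genes were, and none was lower. These were Oseg5 (2.04 and 15.9), IFT46 (CG15161, 4.79 and 29.8), Cby (18.6 and 90.98) and IFT20 (CG30441, 7.31 and 32.8, overlap 63.1%), components or regulators of the cilium. Under equal totals Cby and IFT20 were no longer 4-fold apart. With 5 instead of 1 added to the signal, a pseudocount of 5, Oseg5, IFT46 and IFT20 were under 4-fold. None of the 4 therefore stayed 4-fold apart under every setting tried. Among the 14 members with under 10% overlap 2 were higher. nompB, another transport gene, went the other way without reaching the threshold, 12.4 and 4.04. The 8 compared genes of chordotonal support and apical matrix held no difference of 4-fold, and 7 were within 2-fold, such as the support-cell sodium pump subunit nrv2 (1338 and 1223). The list of transcription factors had 7 compared genes, among them the neuronal marker elav, which is not a transcription factor. Of these 1 was lower, the antennal homeobox gene Dll (20.5 in D. melanogaster and 1.95 in D. yakuba). Dll had 0.553 in D. simulans and 26.6 in D. pseudoobscura.

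Chemoreceptor genes were higher in D. yakuba as a list, with a median log2 difference of 1.57 over 19 compared genes and 1.98 over the 15 above 0 in both. Against shares of 6.02% and 5.46% for all genes, 8 of the 19 were higher and 2 lower. Orco, the coreceptor of odorant receptors in olfactory neurons, had a signal of 622 in D. yakuba, 80.6 in D. melanogaster, 319 in D. persimilis, 70.9 in D. simulans and 345 in D. pseudoobscura. D. yakuba was the highest of the 5 and D. melanogaster near the low end, a log2 difference of 2.93 with no exon overlap. The odorant receptors Or43a (1.29 and 30.6), Or9a (5.901 and 59.3), Or23a (1.01 and 12.3), Or42b (21.8 and 149) and Or43b (9.599 and 43.98) and the ionotropic coreceptor Ir25a (7.08 and 34.4) were higher as well, though Or43b and Ir25a were under 4-fold with equal totals, which left 6 of 19 higher. Or82a was listed at 0 in D. melanogaster and had 5.72 in D. yakuba. The carbon dioxide receptor subunits Gr21a (4.27 and 13.1) and Gr63a (4.896 and 12.3) did not reach 4-fold. The lower genes were Gr10a (7.77 and 0.0490) and Or45b (5.49 in D. melanogaster, listed at 0 in D. yakuba), both wholly overlapped by other genes. Of all 99 genes of the receptor list in the table, 54 were listed at 0 in D. melanogaster and 63 in D. yakuba. The 99 include GluRIIA (2.95 in D. melanogaster, 0 in D. yakuba), a glutamate receptor subunit of muscle and no chemoreceptor, which was not among the compared genes. The summed signal of all 99 was 205 in D. melanogaster and 1110.3 in D. yakuba. Chemoreceptor genes were taken as markers of the olfactory segment next to the organ. The part of tissue from that segment in these or in other differences was not tested.

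Odorant-binding proteins differed in both directions, with 5 of 24 compared genes higher and 8 lower, against 6.02% and 5.46% of all genes. Besides Obp84a, the higher ones were Obp28a (Pbprp5, 853 in D. melanogaster and 4741 in D. yakuba), Obp44a (26.8 and 260.3), Obp83ef (2.903 and 53.7) and Obp56c (listed at 0 in D. melanogaster, 36.8 in D. yakuba). In Obp83ef the D. melanogaster level was the lowest of the 5, the others running from 20.4 to 53.7. The lower ones were Obp56d, Obp57c (849.8 and 204), Obp99b (330.5 and 80.8), Obp83g (9.87 and 0.549), Obp8a, Obp58b, Obp58c (6.597 against 0) and Obp58d (5.75 against 0). Under 4-fold were Obp57c with median-of-ratios scaling and Obp99b under 3 other scalings. Abundant members that were closer included Obp83a (Pbprp3, 3141 and 6679) and Obp83b (Os-E, 2919 and 3133). The median of the list was 0.06, and among the 18 members with under 10% overlap 2 were higher and 8 lower. The summed signal of all 35 genes of the list in the table was 40173 and 44489.9.

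**Figure D4:**
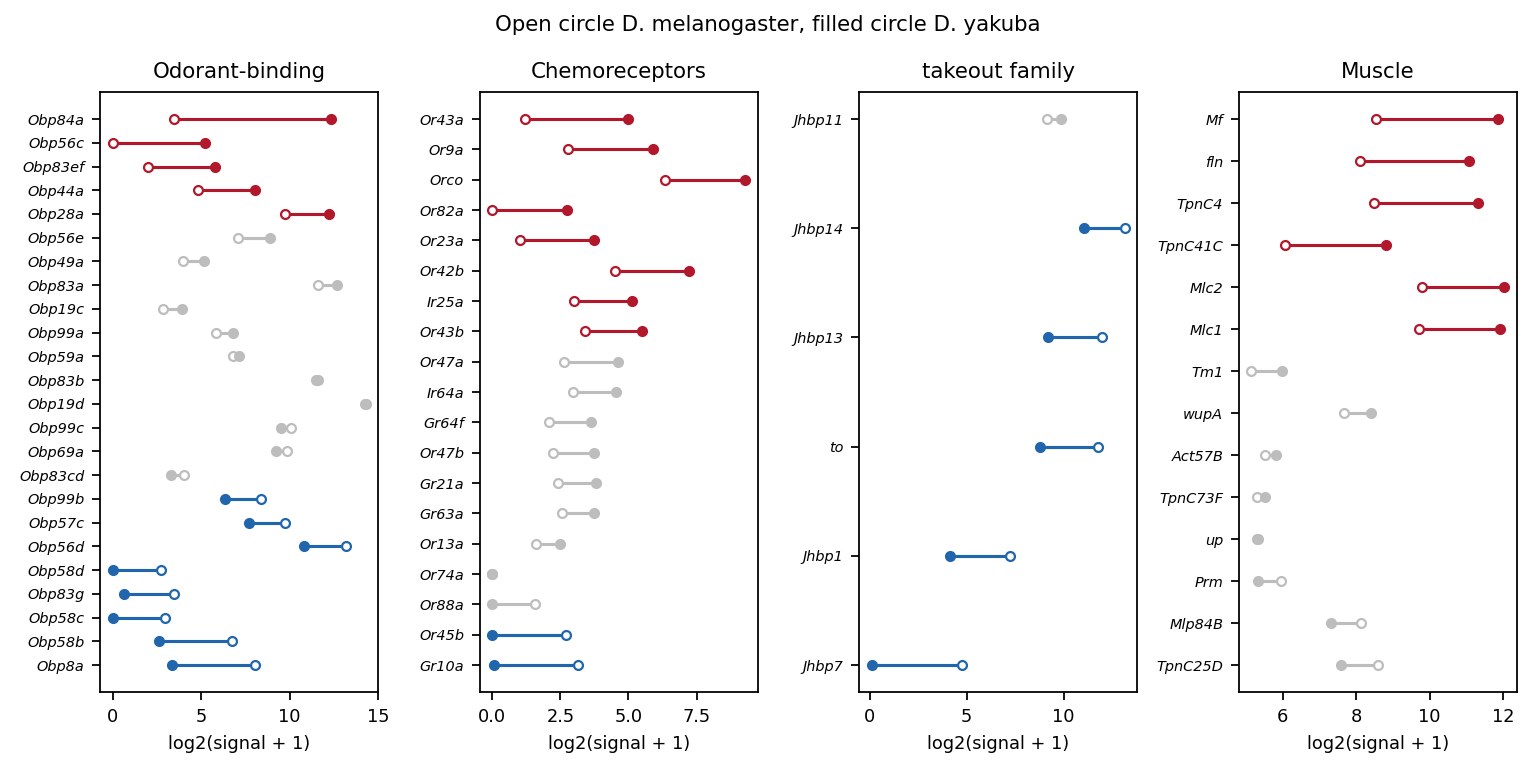
Signal of every compared member of 4 gene families in D. melanogaster (open circles) and D. yakuba (filled circles), as log2 of signal plus 1, 1 row per gene under its current symbol. Red lines mark genes at least 4-fold higher in D. yakuba and blue lines at least 4-fold lower. Chemoreceptors show 8 red and 2 blue rows and odorant-binding proteins 5 red and 8 blue, while the takeout family has 5 blue rows of 6 and muscle 6 red rows of 14.

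Phototransduction genes had a median log2 difference of 1.23, with 13 of 15 compared genes above 0 in difference, though 1 alone was 4-fold higher. That gene was laza (1.11 in D. melanogaster and 25 in D. yakuba), a lipid phosphatase of photoreceptors. The rhodopsin ninaE (51.6 and 146) and the arrestins Arr2 (35.2 and 91.3) and Arr1 (6.304 and 22.3) had higher values in D. yakuba without reaching 4-fold, and the opsin Rh5 had 1.28 in D. melanogaster and 0 in D. yakuba. Summed over all 22 genes of the list in the table, the signal was 191 in D. melanogaster and 419 in D. yakuba. Of 9 other eye and pigment genes 1 was higher, the photoreceptor adhesion protein chp (1.6 and 10.2). The difference in chp was under 4-fold with equal totals or a pseudocount of 5.

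Synaptic and neuronal genes held 2 higher and 1 lower of 24, a share of 12.5% close to the 11.5% of all genes. Gad1, the enzyme that makes the transmitter GABA, had signals of 38.8 in D. yakuba, 4.36 in D. melanogaster, 15.02 in D. persimilis, 27.95 in D. simulans and 7.45 in D. pseudoobscura. D. yakuba was the highest and D. melanogaster the lowest of the 5. VGAT, which loads GABA into vesicles, had 0.0680 and 4.31, from 3 D. melanogaster reads (0.619 to 8.77). The choline acetyltransferase ChAT (Cha), by contrast, was close, 19.1 and 23. The amyloid precursor-like gene Appl was lower, 57.6 and 12.4. In glia, 2 of 13 were higher and 1 lower, against 6.02% and 5.46% of all genes. The list median was −0.20, and 10 of the 13 had a lower value in D. yakuba. Besides alrm, the midline and cortex glia gene wrapper was higher (2.95 and 32.9) and drd lower (17.6 and 2.38), while the common glial products Gs2 (1802 and 1689.8) and nrv2 were within 2-fold.

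Muscle genes split into genes at least 4-fold higher in D. yakuba and genes that were not. Of 14 compared genes 6 were higher and none lower, a share of 42.9% against 6.02% of all genes. The 6 were the myofilin gene Mf (370.2 in D. melanogaster and 3714 in D. yakuba), the thick-filament protein flightin (277 and 2174, overlap 61.6%), the troponin C genes TpnC4 (357 and 2558) and TpnC41C (66.5 and 448), and the myosin light chains Mlc2 (896 and 4191) and Mlc1 (844 and 3896). With equal totals Mlc1 and Mlc2 were under 4-fold, which left 4 of 14 higher. Flightin and TpnC4 are best known from flight muscle. Mf had 14329 in D. simulans, 891 in D. pseudoobscura and 2374 in D. persimilis, and D. melanogaster was the lowest of the 5. The paramyosin gene Prm (60.8 and 39.2), troponin T (up, 38.9 and 38.5) and TpnC25D (388 and 191) were not 4-fold apart. The summed signal of all 17 genes of the list in the table was 3900.4 and 17917. The part that the amount of muscle in either library had in these or in other differences was not tested.

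Fat body and haemolymph genes were lower in D. yakuba in 7 of 25 compared cases, against 5.46% of all genes, and higher in none, with a median of −0.89. Next to Lsp2 and tobi these were Fbp2 (12.1 in D. melanogaster and 0.156 in D. yakuba), to (3513 and 443), fit (1076 and 189), the lipid droplet protein Lsd-2 (116 and 21.4) and Obp99b, which was under 4-fold with 3 other scalings. fit reached 22913 in D. simulans, 1508 in D. pseudoobscura and 1972 in D. persimilis, so that both species of this comparison were below the other libraries. The yolk proteins Yp1 (7491 and 3489.5, overlap 54.3%) and Yp2 (4856 and 2442), made by the female fat body, were lower without reaching 4-fold. Lsd-1, the other lipid droplet protein, had 169.8 and 319. The summed signal of all 29 genes of the list in the table was 22752 and 10680.1.

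The takeout family, carriers related to juvenile hormone binding proteins, had the lowest median of all lists with at least 5 compared genes, −2.90. Of its 6 compared genes 5 were lower, against 5.46% of all genes. They were takeout itself (to, 3R:25240180-25241668), Jhbp14, Jhbp13 (CG5945), Jhbp1 (CG1124) and Jhbp7 (CG11852). takeout had a signal of 443 in D. yakuba, 3513 in D. melanogaster, 428 in D. persimilis, 1229 in D. simulans and 1493 in D. pseudoobscura, where D. melanogaster was the highest of the 5 and D. yakuba near the lowest. Jhbp13 had 580.3, 4090.0, 1164, 1837 and 1693 and Jhbp14 2147, 9042, 1059.9, 1272 and 1523, both highest in D. melanogaster and, for Jhbp13, lowest in D. yakuba. Jhbp1 had 16.6, 149.6, 189.5, 54.5 and 366 and Jhbp7 0.0795, 26.4, 10.4, 0.181 and 18.3, and in these the D. yakuba signal was the lowest of the 5. Jhbp11 (CG17189) had 558 and 923. Among circadian clock genes, 1 of 11 was lower, and that was takeout again. The photoreceptor cry (207 and 108), tim (8.57 and 3.43) and Clk (10.1 and 4.91) were lower without reaching 4-fold and cyc had 47.6 and 99.1. The labels give no time of day for the samples.

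Immune genes included 2 higher and 4 lower of 28, against 6.02% and 5.46% of all genes, and 1 higher and 8 lower with equal totals. The antimicrobial peptide metchnikowin (Mtk, 899.8 and 79.4), the bomanin BomBc3 (CG5791, 957 and 108), the attacin AttD (4.69 in D. melanogaster, 0 in D. yakuba) and the receptor PGRP-LC (42.03 and 6.64) were lower. PGRP-SA, a secreted recognition protein, was higher (32.7 and 138), except with equal totals or a pseudocount of 5. IM18 was listed at 0 in D. melanogaster with full overlap and had 48.7 in D. yakuba. Of 15 haemocyte genes 1 was lower, atilla (1682 and 414), which fell short of 4-fold under 3 other scalings. The prophenoloxidases PPO1 (proPO-A1, 52.7 and 116) and PPO2 (PO45, 113 and 264) were higher without reaching 4-fold.

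Cuticular protein genes were lower in 6 of 14 compared cases and higher in 1, against 5.46% and 6.02% of all genes, with a median of −1.30 and of −1.83 over the 10 above 0 in both. Cpr60D (30.9 in D. melanogaster and 1.92 in D. yakuba), Cpr62Bb (364 and 70.3) and Cpr65Av (7.57 against 0) were lower along with Cpr51A, Cpr100A and Cpr47Ee. The higher one was Cpr57A, listed at 0 in D. melanogaster with full overlap and at 80.6 in D. yakuba. Most of the summed signal of all 66 genes in the table, 16702 and 6845, came from Cpr65Au, described above. Of these 66 genes, 37 were at 0 in D. melanogaster and 48 in D. yakuba.

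Detoxifying enzymes were mostly lower in value. Of 30 cytochrome P450 genes 5 were lower and 1 higher, against 5.46% and 6.02% of all genes, the lower ones being Cyp6w1, Cyp6d5, Cyp4e3, Cyp311a1 (72.3 in D. melanogaster and 9.77 in D. yakuba) and Cyp28a5 (107 and 22.3), all with under 10% overlap. Cyp9c1, the higher one, was listed at 0 in D. melanogaster and is overlapped over 98.2% of its exon bases. The median P450 difference was −0.42, and 22 of 30 genes had a lower value in D. yakuba. Of 18 glutathione transferases 2 were lower, 11.1% against 5.46% of all genes. They were the neighbours GstO1 (CG6662, 14.8 and 0.0786) and GstO2 (CG6673, 47.5 and 7.84). GstO2 was below 10 in every library other than D. melanogaster. The abundant GstD1 had 3839 and 1140.1. Of 5 glycosyltransferases 1 was lower, against 5.46% of all genes. It was Ugt35b (1470.0 and 350.3), which was short of 4-fold with median-of-ratios scaling.

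Digestive genes were split, with 3 of 11 compared genes higher and 3 lower, against 6.02% and 5.46% of all genes. The serine proteases Jon25Bi (0.623 and 18.01), Jon25Bii (0 in D. melanogaster, 12.4 in D. yakuba) and Jon25Biii (1.02 and 29.9) were higher, and Jon74E, tobi and Mal-B1 lower, of 11 compared. The higher ones rest on at most 14 D. melanogaster reads. Heat shock and stress genes included 3 higher and 1 lower of 18, against 6.02% and 5.46% of all genes. The higher ones were Hsp22 (0 in D. melanogaster with full overlap, 58.8 in D. yakuba), its neighbour Hsp67Bb (0.171 and 30.2, overlap 90.1%, 6 D. melanogaster reads) and Hsp67Bc (0.425 and 8.11, no overlap, 7 reads). Hsp22 was at 2895 in D. simulans, 2507 in D. persimilis and 841 in D. pseudoobscura, all far above D. melanogaster and D. yakuba. The metal-binding metallothionein MtnD was lower (17.3 and 1.28), and MtnA (551 and 173) did not reach 4-fold.

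Energy metabolism and ribosomes showed shifts mostly under 4-fold spread over many genes. Of 52 respiratory chain genes 47 had a higher value in D. yakuba, with a median of 0.82. Those at least 4-fold higher numbered 4, or 7.69%, near the 6.02% of all compared genes, and none was that far lower. The 4 were the complex I subunit ND-B8 (CG15434, 58.8 and 569), the cytochrome c oxidase subunits COX7AL2 (CG34172, 256 and 2050.1) and COX7C (CoVIIc, 523 and 2959), and ATPsynC, the last under 4-fold with equal totals. For ND-B8 the D. melanogaster signal was the lowest of the 5 by far, the others running from 569 to 970.4. Cytosolic ribosomal proteins had a median of 0.73, 42 of 50 being higher in value, and the 4-fold differences were RpS27A and RpL35A (1013 and 239), both lower. Mitochondrial ribosomal proteins had a median of −0.39, 34 of 52 being lower in value, with mRpL53 higher and mRpS28 (95.1 and 19.3) lower. With equal totals all of these medians move down by about the shift of −0.25 given above.

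**Figure D5:**
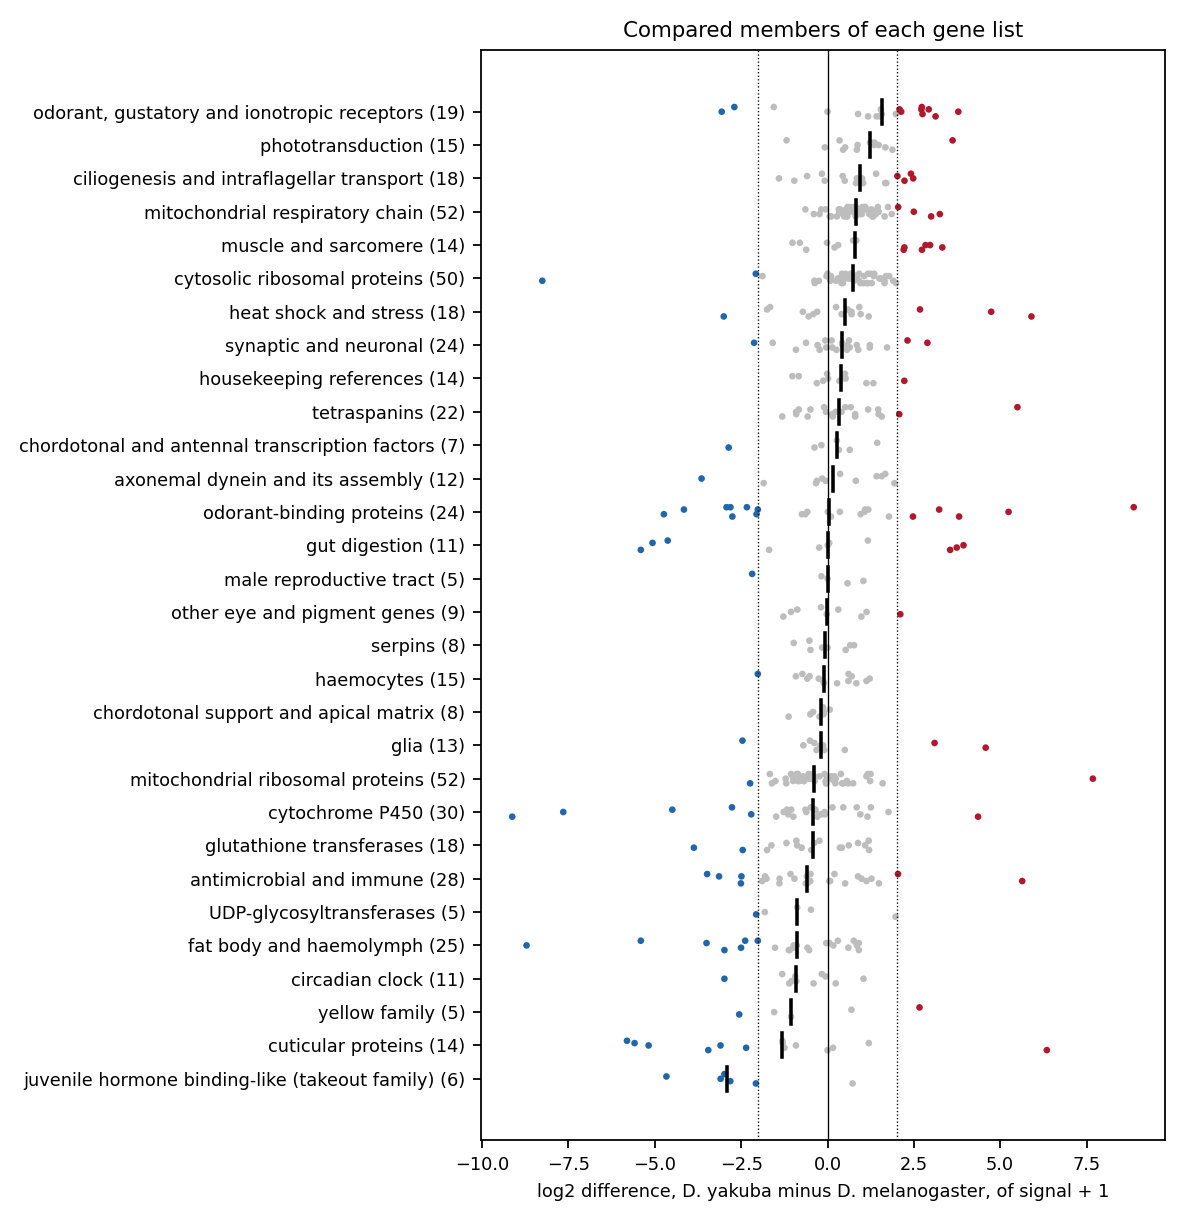
Log2 difference, D. yakuba minus D. melanogaster, of every compared member (points) of the 30 gene lists with at least 5 such members, with list medians as black bars and the 4-fold threshold as dotted lines. Numbers in brackets are compared members, and red and blue points are genes at least 4-fold higher or lower. The top list is the chemoreceptors with a median of 1.57, and the bottom one is the takeout family with −2.90.

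Other lists held few differences. Of 14 housekeeping reference genes 1 was higher, calmodulin (Cam, 279 and 1307), which was under 4-fold with equal totals, and the list median was 0.38. Of 22 tetraspanins 2 were higher, 9.09% against 6.02% of all genes. They were Tsp42Ea and Tsp47F (31.2 and 135), the second short of 4-fold with equal totals or a pseudocount of 5. In the yellow family yellow-c was higher (45.7 and 295, overlap 74.8%) and yellow-h lower (230.2 and 38.3), with yellow-h between 1.45 and 5.23 in the other three libraries. None of 8 serpins and neither of the compared CheA and CheB genes differed 4-fold. The eggshell gene Cp15 was higher (5.82 and 43.3) among 4 germline genes, and PebIII, a protein also made in the male ejaculatory bulb, was lower (5040.3 and 1109.6). The 4 accessory gland genes compared had signals of at most 1.05 in both libraries, and differences in sex between the libraries cannot be told apart from differences between species.

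Genes that differed were in part neighbours. Along the chromosome arms, 129 of them lay in 59 runs of adjacent compared genes with the same direction, 35 higher and 24 lower. With 6.02% of compared genes higher and 5.46% lower, some runs arise in any order of genes. Whether 59 runs exceed that number was not tested. A gene with at least 50% overlap was part of 27 of the higher runs and of 2 lower ones. The longest runs had 4 genes. On 2L the Jon25B proteases and CG34124 (0.731 and 10.1) were higher together, and on 3L CSN3 (21.5 in D. melanogaster and 3.46 in D. yakuba), Polr3E (Sin, 10.6 and 1.48), ko (12.8 and 0.927) and the ubiquitin ligase parkin (park, 11.9 and 1.24, overlap 65.1%) were lower together. Of these, park alone was lowest in D. yakuba, and CSN3, Polr3E and ko were lower still in D. simulans, D. persimilis and D. pseudoobscura, respectively. With a pseudocount of 5, CSN3, Polr3E, ko and park were all under 4-fold, and so were Jon25Bii and CG34124 of the 2L run.

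Lower runs of 3 genes were the odorant-binding genes Obp58b, Obp58c and Obp58d on 2R and, on X, CG2233 (1389 in D. melanogaster and 141 in D. yakuba), the integrin beta subunit mys (65.3 and 7.999) and Ldsdh1 (CG2254, 788 and 164). None of these had exon overlap of at least 50%. Obp58c and Obp58d were at 0 in D. simulans too, and at 189 and 53.2 in D. pseudoobscura. Higher runs of 3 genes were Hsp67Bc, Hsp67Bb and Hsp22 on 3L; CG8892 (4.07 and 19.5), CG31917 and Tfb5 on 2L; Cpr57A, CG13430 and BORCS7 (CG18065) on 2R; mod(mdg4) (10.01 and 55.6, overlap 58.1%) with pre-mod(mdg4)-T and pre-mod(mdg4)-Z on 3R; and stops (0.0523 and 4.97), CG1544 (3.996 and 21.2) and chp, also on 3R. CG31917, Tfb5, Cpr57A, CG13430, BORCS7 and both pre-mod(mdg4) genes were listed at 0 in D. melanogaster and are wholly overlapped by other genes. Some of these members overlap each other. In BDGP6, CG31917 and Tfb5 have the same coordinates, and so do CG13430 and BORCS7. Both pre-mod(mdg4) genes also share theirs and lie within the span of mod(mdg4), and Hsp22 lies within that of Hsp67Bb. In the run of stops, CG1544 and chp, which overlap other genes by under 10%, D. simulans was higher than D. yakuba in all genes and D. pseudoobscura and D. persimilis were listed at 0. The value of stops in D. melanogaster rests on 2 reads (0.242 to 7.22), and CG8892, CG1544 and chp were under 4-fold with equal totals. With a pseudocount of 5, Obp58c, Obp58d, Hsp67Bc, CG8892, CG13430, BORCS7, pre-mod(mdg4)-Z, stops, CG1544 and chp were under 4-fold.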

How the data were processed

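The members, gene lists and alternatives were chosen with earlier results of these data known. Per the labels' protocols, RNA was extracted with a micro-scale kit and libraries followed standard Illumina steps, and the submitters' processing notes name TopHat2 2.0.3 and HTSeq. The deposited counts are whole reads per gene, used for depth and for the D. melanogaster reads behind named genes, with 95% Poisson intervals computed exactly, which cover counting error only. Up to 3 reads were allowed for a count of 0. The deposited signal comes from the authors' table of 8180 genes. The sources used here do not say how it was made. Its upper quartile was 34.3366 in all libraries, and for 76.8% of 5842 D. melanogaster genes with over 20 reads, signal times exon length over reads lay within 5% of the median, so it was read as reads per length. No source used here gives settings for strand or for multiply mapped reads, and reads of near-identical or overlapping genes cannot be told apart.

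Signals were used as deposited, as log2(signal + 1), which understates differences of low genes. No test was run, with 1 library per species. Symbols were matched to BDGP6, a later annotation than release 5.46, by current symbol (6465) or synonym (1622), 8087 in all, of which 30 share an identifier. D. yakuba identifiers are not paired with symbols here, so its reads per gene are not known. Named were the 15 furthest genes per direction above 0 in both libraries plus 3 with CG numbers, 5 per direction listed at 0, up to 4 per list, the 10 highest means and runs of 3 or more neighbours. Further members of the lists were added after their values were seen, to account for each list. Cyp40, a cyclophilin that the name pattern of the P450 list had caught, was taken out afterwards. Tools were Python 3.11.15, pandas 2.3.3, numpy 2.4.6, matplotlib 3.10.9, R 4.3.3 and, for TMM factors as an alternative scaling, edgeR 4.0.16, and calls were checked on simulated data. The closing section gives the alternatives, which covered the pseudocount, the filter, scaling, the threshold, genes at 0 and exon overlap. Sequences were not used here, and 1 gene that the naming rule picks is not reported here.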

Additional observations from a re-analysis of the deposited data

How the results depend on the processing

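Counts of genes at least 4-fold apart stayed within 1.5 times of 572 in all, 300 higher, 272 lower and 438 above 0 in both under a pseudocount of 0.5, the 4 other scalings, a common factor, a filter on the mean of the 2 libraries and filters without D. simulans, D. pseudoobscura or D. persimilis. With a pseudocount of 5 they were 325, 175, 150 and 234. With the filter raised to a mean of 20 they came to 316, 177, 139 and 236. At 2-fold they were 1695, 819, 876 and 1542, and at 8-fold 263, 150, 113 and 153. With no filter the lower count was 411. With genes above 0 in all 5 libraries, 367 differed and 165 were higher. With exon overlap under 10%, an alternative chosen after seeing the data, 370 differed and 146 were higher. Of 144 genes that differed and were picked by the naming rule or held in a list, 96 stayed at least 4-fold apart in the same direction under every pseudocount and scaling tried, and none changed direction. The others fell short mainly with a pseudocount of 5 (40 genes) or equal totals (13), besides 4 with median-of-ratios scaling and 2 each with TMM and with the median difference set to 0. With a pseudocount of 5, 1 of 18 cilium genes was higher, 4 of 19 chemoreceptors were higher and none lower, 5 of 24 odorant-binding proteins were higher and 4 lower, and 5 of 25 fat body genes were lower. List medians moved by at least 0.5 in 18 combinations of list and alternative and by less in 432, and no median of at least 1 in size changed sign. Those near 0 did so under some alternatives, namely axonemal dynein, transcription factors, gut digestion, haemocytes, odorant-binding proteins and other eye genes. No paired analysis was possible because each species has 1 library, and no replicate could be left out. Of 195 higher genes above 0 in both with known reads, 37 had under 20 D. melanogaster reads, which limits how well the size of their difference is known.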
